A study of Mus musculus with 9 samples.

Results

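Irf8, Irf4, Batf3, Zeb2, Maf, Spi1, Klf4, Id2 and Zbtb46 encode transcription regulators tied to the lineages of mononuclear phagocytes, the monocytes, macrophages and dendritic cells (DCs) of tissue. These 9 genes were taken by symbol from the 31053 genes counted, and each symbol matched 1 gene. Their unique molecular identifiers (UMIs, each standing for 1 captured RNA molecule) were summed per library over single cells sorted into classes by marker genes, and none of the 9 took part in that sorting. Levels are given as CPM, the UMIs of a gene per 1000000 UMIs of its class in a library.

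The data were 9 droplet single-cell RNA libraries of CD11b+ cells from the intestinal lamina propria of male C57BL/6 mice aged 7 to 8 weeks. Small intestine of wild-type mice called normal gave 2 libraries, germ-free (GF) wild-type colon gave 2, and colon of wild-type mice drinking pan-antibiotics for about 1 week (ampicillin, neomycin and metronidazole at 1 g/L each, vancomycin at 0.5 g/L) gave 1. Colon of mice labelled Nlrc4 deficient after DSS gave 1 library, colon of wild-type mice after DSS gave 1, and untreated wild-type colon kept specific pathogen free (SPF) gave 2. DSS, dextran sodium sulfate, is a colitis-inducing polymer that was drunk at 2.5%, or at other doses not given there, for 7 days before regular water. The methods of the study sort CD45+CD11b+ cells from colon that includes submucosa and muscularis besides lamina propria, and pool mice. The labels do not say that libraries of 1 condition came from separate mice, so p-values measure the spread between libraries, which may be technical.

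Macrophages, monocytes and dendritic cells are told apart in part by which of these regulators they keep. In the mouse, IRF8 with BATF3 is required for type 1 conventional dendritic cells (cDC1), which cross-present antigen to CD8 T cells, and IRF4 with KLF4 for subsets of type 2 conventional dendritic cells (cDC2), which prime helper T cells. ID2 restrains E proteins and so favours conventional over plasmacytoid dendritic cells, ZBTB46 is a repressor restricted among immune cells largely to conventional dendritic cells, ZEB2 is a repressor that supports monocytes, cDC2 and plasmacytoid cells, PU.1 (from Spi1) is the ETS factor of all myeloid cells, and c-MAF restrains self-renewal of macrophages.

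Library totals lay between 13243317 and 64453601 UMIs, and 1450 to 6698 cells per library passed the filter (mitochondrial UMIs up to 15%, at least 200 genes), with 3342 to 12322.5 UMIs in the median cell. Marker limits put 3051 cells into a C1q resident macrophage-like class and 2452 into a monocyte-like class. Another 1627 cells with shared monocyte and macrophage markers met neither definition and formed an intermediate class. That class could include cells with monocyte sorting markers and some C1q. Its median was 531 CPM of C1q, against 6252 CPM in macrophages and 34.1 CPM in monocytes. Its median of monocyte sorting markers was 1160 CPM, against 433 CPM in macrophages and 4416 CPM in monocytes. The dendritic classes held 747 cDC1-like cells, 1074 Cd209a cDC2-like cells, 518 Itgae Plet1 cDC2-like cells and 797 Ccr7 mature DC-like cells. CD11b is low or absent on many cDC1, and the part of the sort in their number was not tested. By their markers, the kept cells also held 4415 B cells, 2496 plasma cells, 1675 T cells, 1057 epithelial cells and 915 fibroblasts. Markers not used for sorting reached a median of 9814 CPM in the macrophage class, against 1790 CPM in monocyte-like cells, and those of cDC1 reached 2602 CPM in the cDC1 class, against 587 CPM in Cd209a cDC2-like cells. The unused cDC2 markers did not tell Cd209a cDC2-like cells (860 CPM) from intermediate cells (915 CPM), so the cDC2 names rest on the sorting genes. UMIs of the targeted gene were not lower under its label: Nlrc4 stood at 37.3 CPM in monocytes, intermediates and macrophages of the library labelled Nlrc4 deficient, against 16.2 to 26.7 CPM in the other 8. The deleted part of Nlrc4 is not given in the sources used here, and 3' tags outside it check nothing, so this library is called by its label throughout. Any pair of libraries shared at most 20 cell barcodes.

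The stretches of 250 bases upstream of the RefSeq transcription start are shown for Irf8, Irf4 and Zeb2, the 3 members that differed most between cDC1-like and Cd209a cDC2-like cells. RefSeq promoters of build GRCm38.p6 matched 7 of the 9 members, and Maf and Spi1 had no row. The stretches lie at chr8:120736108-120736357 (plus strand) for Irf8, chr13:30748983-30749232 (plus strand) for Irf4 and chr2:45117443-45117692 (minus strand) for Zeb2, the genes with Ensembl identifiers ENSMUSG00000041515, ENSMUSG00000021356 and ENSMUSG00000026872. In GENCODE vM21 on GRCm38 the gene starts at position 120736358 for Irf8, 30749226 for Irf4, which lies inside the stretch, and 45117395 for Zeb2. Capitals mark matches to any of the motifs searched.
Irf8: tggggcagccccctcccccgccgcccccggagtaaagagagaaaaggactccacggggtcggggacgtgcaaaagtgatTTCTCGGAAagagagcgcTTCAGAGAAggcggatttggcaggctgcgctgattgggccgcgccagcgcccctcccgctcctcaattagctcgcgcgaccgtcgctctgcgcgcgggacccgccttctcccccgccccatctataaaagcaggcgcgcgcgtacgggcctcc
Irf4: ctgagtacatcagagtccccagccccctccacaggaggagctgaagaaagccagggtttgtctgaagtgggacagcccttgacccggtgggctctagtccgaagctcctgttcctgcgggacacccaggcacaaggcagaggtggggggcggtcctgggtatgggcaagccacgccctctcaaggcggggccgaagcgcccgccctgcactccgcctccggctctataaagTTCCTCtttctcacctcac
Zeb2: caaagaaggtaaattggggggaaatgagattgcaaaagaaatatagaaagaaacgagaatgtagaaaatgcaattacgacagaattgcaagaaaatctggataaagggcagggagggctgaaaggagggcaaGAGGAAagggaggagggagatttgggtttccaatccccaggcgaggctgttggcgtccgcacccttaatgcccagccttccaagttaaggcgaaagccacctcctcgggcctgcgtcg
Irf8 held 2 matches to the GAS element bound by STAT factors (TTCNNNGAA, which reads the same on both strands), 171 to 163 and 153 to 145 bases before the start. Irf4 held the PU.1 core GAGGAA on the opposite strand 19 to 14 bases before the start, and Zeb2 held it on its own strand 118 to 113 bases before the start. Searched on both strands, GAGGAA was in 23.3% of 32851 promoter rows and in 3 of the 7 members, the third being Batf3. TTCNNNGAA was in 7.02% of rows and in 2 members, Irf8 and Batf3. The AP-1 site TGANTCA (6.75% of rows) and the ZEB E-box CACCTG (17.2% of rows) were each in 1 member, Zbtb46. The Zbtb46 stretch (chr2:181424389-181424638, minus strand) lies inside the gene, far from its GENCODE start at 181459426. Its matches are therefore not upstream of that start. The Batf3 stretch (chr1:191098164-191098413, plus strand) also lies inside its gene, which starts at 191097847. Id2, without a match, had a stretch inside its gene as well. A pair of IRF sites (GAAA, any 2 bases, GAAA, in 2.98% of rows) and a composite ETS and IRF site (GGAA, any 2 bases, GAAA, in 2.3% of rows), which can share their last 4 letters, were in none of the 7. These matches are letters only.

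**Figure D1:**
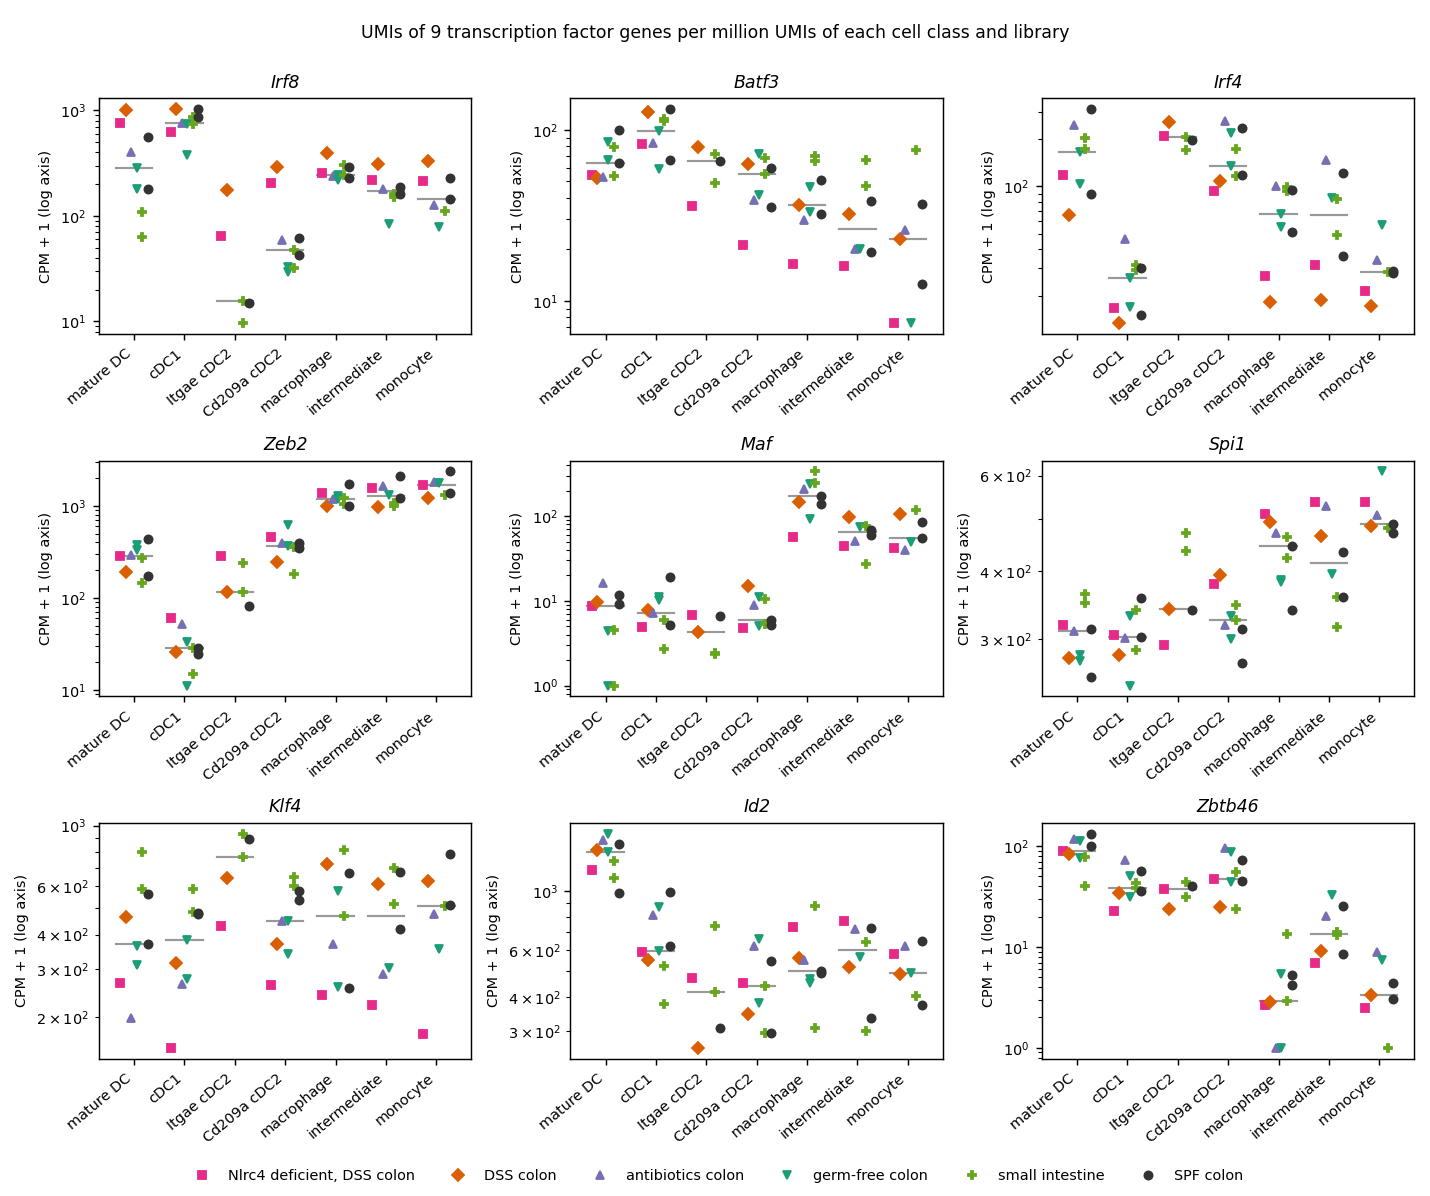
Levels (CPM + 1, log axis) of the 9 genes in each cell class. Each point is 1 library, with colour and shape giving the condition, and the grey bar is the median over the libraries of the class. Irf8 is highest in cDC1 (mean 784 CPM) and Zeb2 lowest there (mean 30.1 CPM).

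cDC1-like cells had high Irf8 and Batf3 with low Irf4 and Zeb2, relative to Cd209a cDC2-like cells of the same libraries. The plot of levels by class shows Irf8, the cDC1 regulator, at 377 to 1028.6 CPM over 9 libraries of cDC1-like cells (median 766), against 28.6 to 290 CPM in Cd209a cDC2-like cells (median 46.8). Irf4, the cDC2 regulator, lay the other way, at 12.3 to 45.4 CPM in cDC1-like cells (median 24.9) and 92.0 to 260 CPM in Cd209a cDC2-like cells (median 135). Zeb2, the repressor of Id2 in mouse DC progenitors, had 10.1 to 60.1 CPM in cDC1-like cells (median 27.3) and 179 to 611 CPM in Cd209a cDC2-like cells (median 365). The groups did not overlap for any of these 3 genes. Batf3 averaged 96.6 ± 26.2 CPM in cDC1-like and 49.7 ± 17.2 CPM in Cd209a cDC2-like cells (SD, n = 9 each) and was higher in cDC1-like cells of all 9 libraries, although its ranges overlapped.

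Of the 9 members, 6 passed edgeR's quasi-likelihood test of cDC1-like against Cd209a cDC2-like cells, where 44.6% of all 8949 genes tested did. Irf8 was higher by 3.51 on the log2 scale (SE 0.29, adjusted p = 7.64e-15), Batf3 by 1.01 (SE 0.16, adjusted p = 1.24e-06) and Id2 by 0.53 (SE 0.15, adjusted p = 0.00335), each in 9 of 9 libraries. Zeb2 fell by 3.64 (SE 0.17, adjusted p = 6.2e-24), Irf4 fell by 2.79 (SE 0.20, adjusted p = 3.98e-17) and Klf4, needed for part of the cDC2 lineage, fell by 0.40 (SE 0.14, adjusted p = 0.0172), each lower in 9 of 9. Spi1, the pan-myeloid factor, differed by -0.14 (adjusted p = 0.227), Zbtb46 by -0.42 (adjusted p = 0.0677) and Maf by 0.25 (adjusted p = 0.638), none past the threshold. The calls of Klf4 and Id2 were lost with marker limits doubled (adjusted p = 0.0535 and 0.083) and without the library block (0.276 and 0.0506). Zbtb46 passed as lower in cDC1-like cells over the colon libraries alone (-0.58, adjusted p = 0.00682), without either small intestine library, without the DSS library and with the stricter limits.

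**Figure D2:**
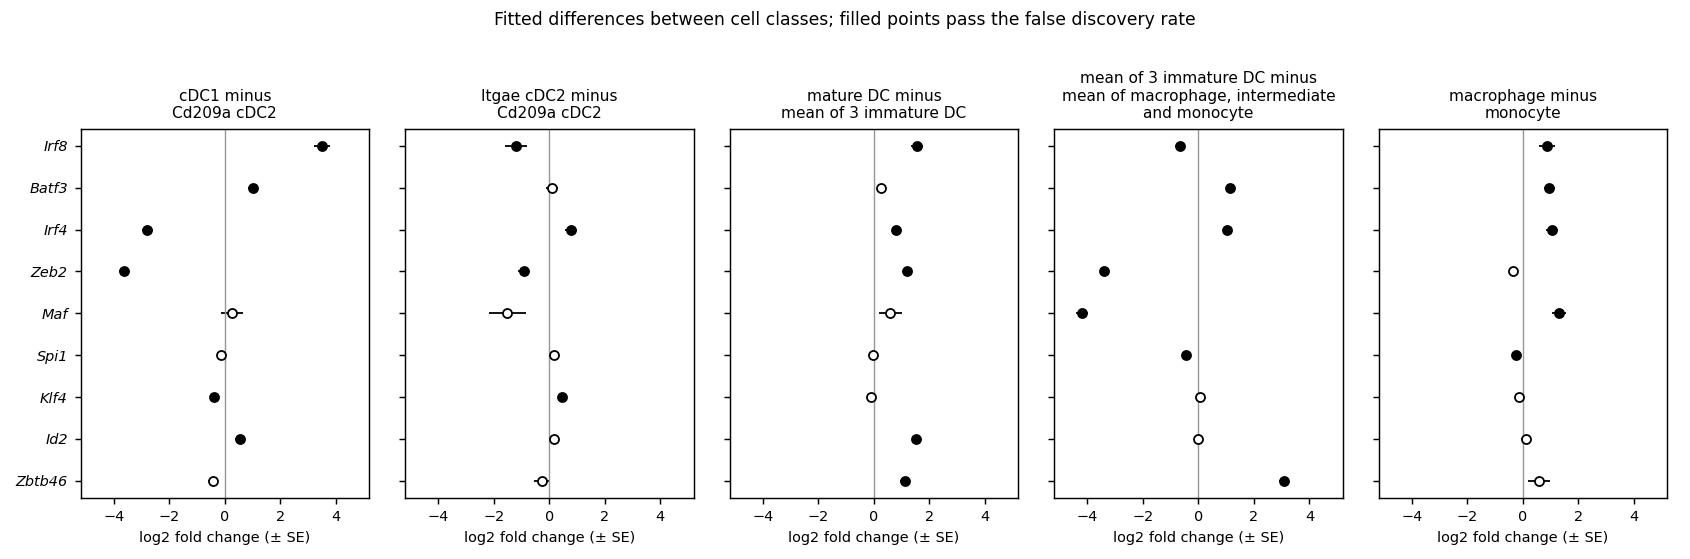
Fitted log2 fold changes (± SE, x axis) of the 9 genes for 5 differences between classes, the class named first minus the other, from the same edgeR fit. Filled points pass a false discovery rate of 0.05: Irf8 (+3.51) and Zeb2 (-3.64) lie farthest from 0 in the first panel, Maf (-4.18) and Zeb2 (-3.42) in the panel of immature DC against monocytes and macrophages.

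Most relatives of the members that passed in this comparison were lower in cDC1-like cells. Of 9 ETS family genes, 0 were higher and 8 lower in cDC1-like cells (median log2 fold change -1.09, against 0.03 over all genes), with Spic at -4.05, Spib at -2.78 and Elk3 at -1.29. Of 9 AP-1 genes and BATF partners, 0 were higher and 5 lower, led by Batf at -1.99, which can stand in for BATF3 in mice, Batf2 at -1.89 and Fosl2 at -1.78. Id3, an E protein inhibitor like ID2, fell by 2.65, and its partner-family gene Tcf4 fell by 1.30, whereas Tcf3 was higher by 0.72. Of 5 genes that PU.1 is known to bind and drive, 3 were lower, namely Itgam at -4.07, which encodes the CD11b of the sort, Cybb of the phagocyte oxidase at -3.89 and Csf2ra at -0.51.

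Itgae Plet1 cDC2-like cells, which resemble the CD103+CD11b+ DCs of the gut by their sorting genes, reached 20 cells in 5 libraries only, among them both small intestine libraries. Irf8 had 8.59 and 14.6 CPM in the small intestine libraries, 63.8 CPM in the library labelled Nlrc4 deficient, 176 CPM in the DSS library and 14.1 CPM in SPF replicate 1. Irf4 was even across the same libraries, at 170 to 258 CPM. Against Cd209a cDC2-like cells, Itgae Plet1 cDC2-like cells had higher Irf4 (+0.78, SE 0.21, adjusted p = 0.00568, 5 of 5 libraries) and lower Zeb2 (-0.93, SE 0.19, adjusted p = 0.000237, lower in 5 of 5), and 4 members passed where 15.8% of all genes did. Irf8 fell by 1.21 (SE 0.40, adjusted p = 0.0285) and Klf4 was higher by 0.47 (SE 0.17, adjusted p = 0.0497), each the same way in 5 of 5. Only the Zeb2 call among these 4 held in each alternative that gave a value. Irf4 lost its call without the DSS libraries (+0.34, adjusted p = 0.311), with marker limits halved (+0.42, adjusted p = 0.211) and without the library block (+0.34, adjusted p = 0.662). Irf8 lost it without the library block (edgeR adjusted p = 0.396), with marker limits halved (0.324) and over the colon alone (0.312). Its call was also lost without SPF replicate 1 (0.0919), the library labelled Nlrc4 deficient (0.086), small intestine 1 (0.122) or small intestine 2 (0.0889). Klf4 lost its call without any 1 of 7 libraries (adjusted p up to 0.137). It was also lost with limits halved (0.305), without the DSS libraries (0.245), without the block (0.189) and over the colon (0.117). Among relatives, Id3 (-3.05), Hes1 (-2.10), Bcl11a (-1.43), Irf1 (-1.27) and Bcl6 (-1.25) were lower in Itgae Plet1 cDC2-like cells, and Mitf was higher (+1.39).

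Ccr7 mature DC-like cells, the migratory state that carries antigen to lymph nodes, had the highest class means of Id2 and Zbtb46. Id2 lay at 982 to 1632 CPM over 9 mature libraries (median 1395), against 378 to 986 CPM in cDC1-like cells and 292 to 658 CPM in Cd209a cDC2-like cells. Zbtb46 lay at 39.4 to 132 CPM in mature cells (median 88.8), against 22.5 to 93.7 CPM in Cd209a cDC2-like cells. The mature libraries overlapped the others for Zbtb46 and, at the lower end, for Id2. In edgeR's test against the mean of the 3 immature classes, 5 of 9 members passed, where 45.7% of all genes did. Id2 averaged 1343 CPM in mature cells and 515 CPM over the immature classes (log2 SE 0.12, adjusted p = 3.33e-15), while Zeb2 was higher by 1.19 (SE 0.13, adjusted p = 2.25e-11) and Zbtb46 by 1.10 (SE 0.16, adjusted p = 7.9e-08), each in 5 of the 5 libraries that held all 4 classes. Irf8 (+1.55, SE 0.23, adjusted p = 1.05e-07) and Irf4 (+0.80, SE 0.15, adjusted p = 1.01e-05) were higher on the log scale of the fit but exceeded the plain mean of the 3 classes in only 3 of 5 libraries. Irf8 in mature cells lay between the cDC classes: cDC1-like cells exceeded mature cells by 1.19 (adjusted p = 8.84e-05), and Cd209a cDC2-like cells differed from mature cells by -2.32.

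The same comparison had Relb, the NF-kB subunit of DC maturation, higher by 2.13, Zbtb10 by 2.06 and the nuclear receptor gene Nr4a3 by 1.72 in mature cells. Of 9 ETS family genes 6 were higher and 1, Fli1 (-1.29), was lower, with Spic at +3.55 and Spib at +2.67. Irf7 (+0.96), Irf1 (+0.96) and Irf5 (+0.25) were the 3 of 6 other IRF genes that passed, all higher. Of 6 KLF genes 1 was higher, Klf6 (+0.59), and 3 were lower, among them Klf13 (-0.59).

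The 3 immature dendritic classes and the 3 monocyte and macrophage classes were set apart by Maf, Zeb2 and Zbtb46. Maf had 1.33 to 17.9 CPM in immature DC classes and 26.2 to 336 CPM in the monocyte and macrophage classes, with no overlap. Its class means in DCs, 3.49 to 7.20 CPM, were below those of plasma cells (9.50 CPM) and epithelium (17.4 CPM), so the DC level is read as background. Zbtb46 had 21.9 to 93.7 CPM in immature DC classes, 5.93 to 32.0 CPM in intermediates, 0 to 12.3 CPM in macrophages and 0 to 7.86 CPM in monocytes; B cells (2.48 CPM) and neutrophils (6.06 CPM) lay at the level of the macrophages and monocytes. In edgeR's test 7 of 9 members passed, where 69.4% of all genes did. Maf fell by 4.18 (SE 0.22, adjusted p = 1.85e-23) and Zeb2 fell by 3.42 (SE 0.11, adjusted p = 7.55e-33) in immature DCs, while Zbtb46 was higher by 3.08 (SE 0.17, adjusted p = 1.65e-22), Batf3 by 1.12 (SE 0.12, adjusted p = 5.49e-12) and Irf4 by 1.03 (SE 0.12, adjusted p = 1.15e-10), each the same way in 4 of the 4 libraries with all 6 classes. The Irf4 rise was that of Cd209a and Itgae Plet1 cDC2-like cells (means of 162 and 208 CPM). cDC1-like cells had the lowest class mean of Irf4 (24.0 CPM), below that of monocytes (29.6 CPM). Spi1 fell by 0.44 (SE 0.06, edgeR adjusted p = 1.87e-08). Klf4 (+0.04) and Id2 (-0.03) did not pass.

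Irf8 gave a direction in this last comparison that depends on the scale. Its fitted mean over log levels was lower in immature DCs by 0.67 (SE 0.19, adjusted p = 0.0015), a call lost without the library block (adjusted p = 0.102), whereas the mean of the class CPM was 309 in immature DCs and 209 in monocytes and macrophages and higher in DCs of 4 of 4 libraries. The class averages behind both were 784 CPM in cDC1-like, 88.4 CPM in Cd209a cDC2-like and 55.5 CPM in Itgae Plet1 cDC2-like cells, against 268 CPM in macrophages, 181 CPM in intermediates and 176 CPM in monocytes. The macrophage and monocyte list apart from the members had 2 genes higher and 7 lower of 9 tested in immature DCs (median -2.92), with Tfec at -6.20, Nr1h3 at -4.10 and Cebpb at -3.53. Spic, of red pulp and bone marrow macrophages, stood at -6.62, while Zeb1 (+2.62), Bcl11a (+1.91) and Spib (+1.48) were higher in immature DCs.

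Resident macrophage-like cells differed from monocyte-like cells most in Maf and Irf4. Maf lay at 55.2 to 336 CPM in macrophages (median 171) and 39.3 to 116 CPM in monocytes (median 54.6), and Irf4 at 17.3 to 99.99 CPM in macrophages (median 65.8) and 16.3 to 55.4 CPM in monocytes (median 27.4). The ranges overlapped, but within every one of the 7 libraries with both classes macrophages were higher for each gene. In edgeR's test 5 members passed, where 33.4% of all genes did: Maf (+1.29, SE 0.25, adjusted p = 3.96e-05, 7 of 7), Irf4 (+1.04, SE 0.21, adjusted p = 0.00012, 7 of 7), Batf3 (+0.95, SE 0.21, adjusted p = 0.0003, 6 of 7), Irf8 (+0.86, SE 0.30, adjusted p = 0.0204, 7 of 7) and Spi1 (-0.27, SE 0.10, adjusted p = 0.0387, lower in 6 of 7). Irf8 lost its call without the library block (edgeR adjusted p = 0.409). It also lost it without GF replicate 2 (0.0608), without the antibiotics library (0.0593) and over the colon alone (0.0595). Spi1 lost its call without either SPF library (adjusted p = 0.0615 and 0.0954), without either GF library (0.0526 and 0.212), with looser marker limits (0.146) and without the cells of most UMIs (0.0508). It was also lost without the library block (0.122) and with no filter on low counts (0.086). Zeb2 was lower in macrophages of 7 of 7 libraries without passing (-0.35, adjusted p = 0.0641), and it passed without either small intestine library (adjusted p = 0.0354 and 0.0403). Cells with DC sorting markers at their limits were left out of monocytes and intermediates but not of macrophages. The part of DC RNA in the higher Irf4, Batf3 and Irf8 of macrophages was not tested.

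Intermediate cells had more Irf4 than monocytes and less Maf than macrophages, while their Irf4 against macrophages (macrophages +0.07, adjusted p = 0.882) and Maf against monocytes (-0.09, adjusted p = 0.937) did not pass edgeR's test. Maf averaged 181 ± 85.7 CPM in macrophages (SD, n = 9), 61.4 ± 21.6 CPM in intermediates (n = 8) and 69.9 ± 31.8 CPM in monocytes (n = 7). Irf4 averaged 66.5 ± 31.8 CPM in macrophages, 70.5 ± 45.9 CPM in intermediates and 29.6 ± 12.6 CPM in monocytes. Macrophages exceeded intermediates in Maf by 1.38 (SE 0.24, adjusted p = 2.1e-05, 8 of 8 libraries), and Zbtb46 fell by 1.46 (SE 0.32, adjusted p = 0.000653), where 18.9% of all genes passed and 2 members did. Intermediates exceeded monocytes in Zbtb46 by 2.04 (SE 0.37, adjusted p = 0.000172) and in Irf4 by 0.96 (SE 0.23, adjusted p = 0.00455), each in 7 of 7 libraries, where 5.86% of all genes passed and 2 members did. Other DC genes were summed in the same classes. The sum of Flt3, Dpp4 and Ciita had a median of 120 CPM in macrophages (53.4 to 172), 147 CPM in intermediates (83.6 to 276) and 81.7 CPM in monocytes. The sorting markers of cDC1 had medians of 142 CPM in macrophages, 66.7 CPM in intermediates and 50.9 CPM in monocytes, those of Cd209a cDC2 179, 96.3 and 40.5 CPM, and those of Itgae Plet1 cDC2 32.5, 19.3 and 27.7 CPM. The sorting markers of Ccr7 mature DC had medians of 384 CPM in macrophages, 404 CPM in intermediates and 99.0 CPM in monocytes. Cells with DC sorting markers at their limits were left out of intermediates and monocytes but not of macrophages. These sorting lists therefore cannot compare macrophages with intermediates or monocytes. With marker limits doubled, both Zbtb46 calls were lost (-0.32, adjusted p = 0.602, and +1.05, adjusted p = 0.286). The part of DC RNA in the Zbtb46 of intermediates was not tested. The Irf4 call was lost without SPF replicate 2 (adjusted p = 0.0574), without the antibiotics library (0.0584), with doubled limits (0.0841) and without the library block (0.096).

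Other regulators moved between macrophages and monocytes as well. Nr1h3, which encodes a sterol-sensing receptor, was higher in macrophages by 1.49, Ets1 by 1.44 and Cebpa by 0.96. Bcl11a (-1.44), Id3 (-1.15), Irf7 (-1.05), Id1 (-1.04), Irf1 (-0.93), Batf (-0.86), Klf3 (-0.85) and Cebpb (-0.82) were lower. Of the 6 other IRF genes 1 was higher (Irf3, +0.50) and 4 were lower (median -0.46, against 0.04 over all genes). The PU.1 genes Cybb (-0.54) and Itgam (-0.48) were lower in macrophages together with Spi1, and 0 of the 5 were higher.

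Ordered by class mean, each gene had its own sequence of levels. Irf8 ran from cDC1 (784 CPM) through mature DC (394 ± 324 CPM), macrophages, intermediates and monocytes to Cd209a and Itgae Plet1 cDC2. The neighbours mature DC and macrophages, macrophages and intermediates, and intermediates and monocytes did not pass edgeR's test against each other. Macrophages passed over intermediates with marker limits doubled (+0.85, edgeR adjusted p = 0.0316) or halved (+0.89, 0.0213) and without the DSS libraries (+0.79, 0.0141). They also passed without the library labelled Nlrc4 deficient (+0.79, 0.0396) and with no filter on low counts (+0.75, 1.2e-07). Zeb2 ran from monocytes (1651 ± 388 CPM), intermediates (1359 ± 399 CPM) and macrophages (1225 ± 230 CPM), which did not pass against their neighbours, to Cd209a cDC2 (371 ± 123 CPM), which macrophages exceeded by 1.74 on the log2 scale (adjusted p = 5.9e-15), then mature DC (278 ± 98.2 CPM), Itgae Plet1 cDC2 (167 ± 88.3 CPM) and cDC1 (30.1 ± 16.2 CPM). Irf4 was highest in Itgae Plet1 cDC2 (208 ± 32.0 CPM), followed by mature DC (164 ± 80.4 CPM) and Cd209a cDC2 (162 ± 62.7 CPM), which did not pass against each other. Batf3 fell off in small steps, and after cDC1 over mature DC (+0.37, edgeR adjusted p = 0.0451) no neighbouring pair passed. With marker limits doubled, macrophages passed against intermediates for Batf3 (+0.77, edgeR adjusted p = 0.00371) and Zeb2 (-0.41, 0.0464). With limits halved, intermediates passed against monocytes for Batf3 (+0.69, edgeR adjusted p = 0.0118) and Zeb2 (-0.56, 0.0377).

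Spi1, Klf4 and Id2 were spread over every class. Spi1 averaged 303 ± 36.1 CPM in mature DC at the low end and 510 ± 49.1 CPM in monocytes at the high end, and apart from macrophages against monocytes no neighbours in that order passed. Spi1 was at 7.25 CPM in epithelium, 34.3 CPM in T cells and 655 CPM in neutrophils, so its level in every phagocyte class lay above that of cells expected to lack it. Klf4 averaged 379 ± 138 CPM in cDC1 and 731 ± 204 CPM in Itgae Plet1 cDC2, against 993 CPM in epithelium and 768 CPM in fibroblasts. Epithelial markers had medians of 187 CPM in Itgae Plet1 cDC2, 81.9 CPM in Cd209a cDC2 and 25.5 CPM in cDC1. The part of epithelial RNA in the order of Klf4 was not tested. Klf4 varied more between libraries of 1 class (SD 0.59 on the log2 scale) than between class means (SD 0.30), the lowest such ratio of the 9. Zeb2 had the highest ratio, with an SD of 1.98 between class means and 0.48 within classes, followed by Maf (1.47 and 0.48) and Zbtb46 (1.12 and 0.43).

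GF and SPF colon were compared in macrophages, cDC1-like, Cd209a cDC2-like and mature DC-like cells, with 2 libraries per condition, to ask whether microbes alter these levels. In edgeR's test 0 of 33 combinations of member and class passed, and 0% of all genes did in each class. At an unadjusted p under 0.05, 298 to 481 genes passed per class with 0 members among them, and DESeq2 called 3 or 4 genes per class. The libraries of the conditions did not overlap in 6 of the 33 combinations, where 28.9% of genes reaching 50 CPM did not overlap in macrophages, 41.8% in cDC1, 33.5% in Cd209a cDC2 and 39.9% in mature DC. Irf8 in cDC1-like cells had 748 and 377 CPM in GF colon, against 1028.6 and 875 CPM in SPF colon, a difference of -0.57 (SE 0.29, edgeR adjusted p = 0.855). Irf8 in Cd209a cDC2-like cells had 28.6 and 31.8 CPM in GF colon, against 60.96 and 41.9 CPM in SPF colon (-0.61, SE 0.36). Data simulated for GF against SPF in cDC1-like cells gave back 13.5% of genes changed 2-fold and 78.4% of genes changed 4-fold, so most 2-fold changes would not be called with 2 libraries each.

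**Figure D3:**
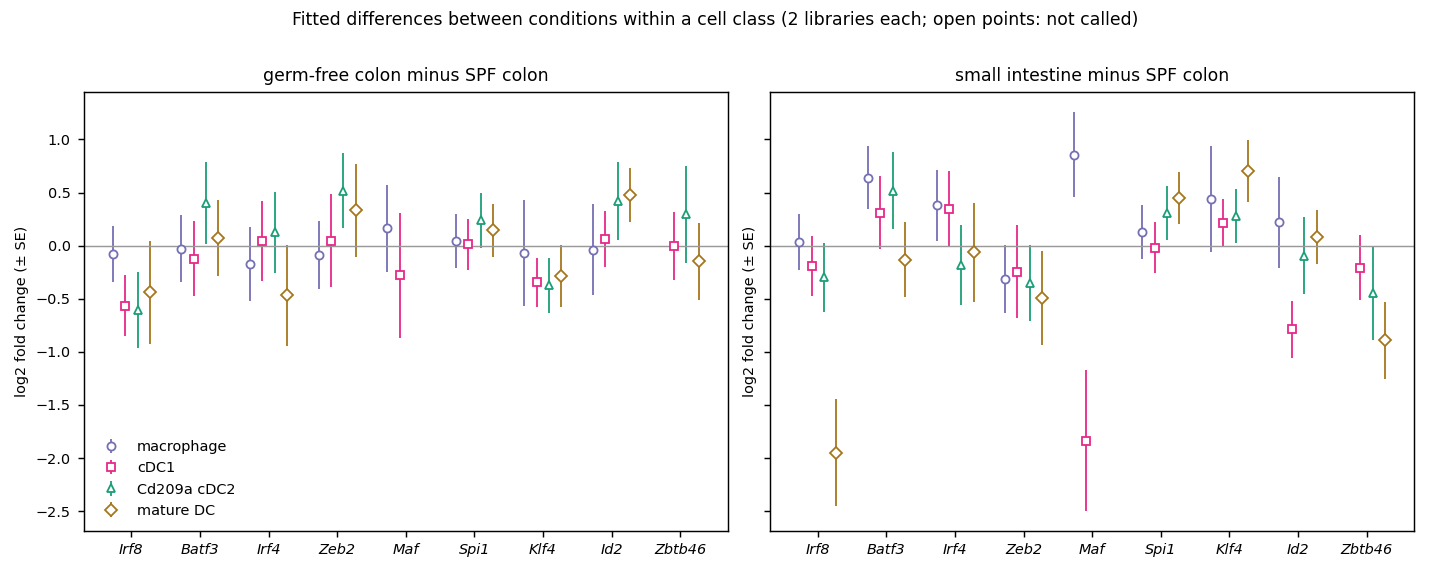
Fitted log2 fold changes (± SE, y axis) of the 9 genes in 4 classes, GF colon minus SPF colon (left) and small intestine minus SPF colon (right), 2 libraries each. No point passes the false discovery rate; Irf8 in mature DC (-1.95) and Maf in cDC1 (-1.84), both in small intestine, lie farthest from 0.

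Small intestine against SPF colon called 0 of 33 combinations as well, while 0% of genes passed in macrophages and mature DC, 0.0614% in cDC1-like and 0.0135% in Cd209a cDC2-like cells. At an unadjusted p under 0.05, 513 to 742 genes passed per class, with 2 members in cDC1-like and 3 in mature cells, and DESeq2 called 13 to 41 genes per class. The libraries did not overlap in 11 of the 33, where 43.9% of genes reaching 50 CPM did not in macrophages, 34.7% in cDC1, 35.8% in Cd209a cDC2 and 36.8% in mature DC. In mature DC-like cells Irf8 stood at 62.5 and 107 CPM in small intestine, against 564 and 179 CPM in SPF colon. The libraries did not overlap, and the difference was -1.95 (SE 0.50, edgeR adjusted p = 0.278). DESeq2 called it (-1.99, adjusted p = 0.0196). With no filter on low counts edgeR called it too (adjusted p = 4.31e-06), but that setting called 162 genes in mature cells, against 0 in the main fit. Without SPF replicate 2, which left only the SPF library at 564 CPM, the difference was -2.56. Zbtb46 in mature cells had 39.4 and 76.9 CPM in small intestine, against 99.3 and 132 CPM in SPF colon (-0.89, SE 0.37, edgeR adjusted p = 0.536), and Klf4 had 799 and 585 CPM against 560 and 368 CPM (+0.70, SE 0.29, edgeR adjusted p = 0.545).

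Id2 in cDC1-like cells had 378 and 525 CPM in small intestine, against 620 and 986 CPM in SPF colon (-0.79, SE 0.27, edgeR adjusted p = 0.505). It passed with no filter on low counts (edgeR adjusted p = 0.0479), a setting that called 135 genes in cDC1-like cells, against 5 in the main fit. Maf in macrophages had 245 and 336 CPM in small intestine, against 171 and 139 CPM in SPF colon (+0.86, SE 0.40, edgeR adjusted p = 0.583), and Batf3 in macrophages had 69.0 and 65.1 CPM, against 50.1 and 31.3 CPM (+0.64, SE 0.30, edgeR adjusted p = 0.578). Neither passed. When the effects of GF and small intestine were compared between pairs of classes, 0 of the members passed, where 0.334% of genes or fewer did (0.0608% and 0.0101% for cDC1 against macrophages and against Cd209a cDC2 in small intestine), and the smallest p was for Maf, whose small intestine effect in cDC1-like cells minus that in macrophages was -2.88 (edgeR adjusted p = 0.217). Maf in cDC1-like cells is at the level read as background above.

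**Figure D4:**
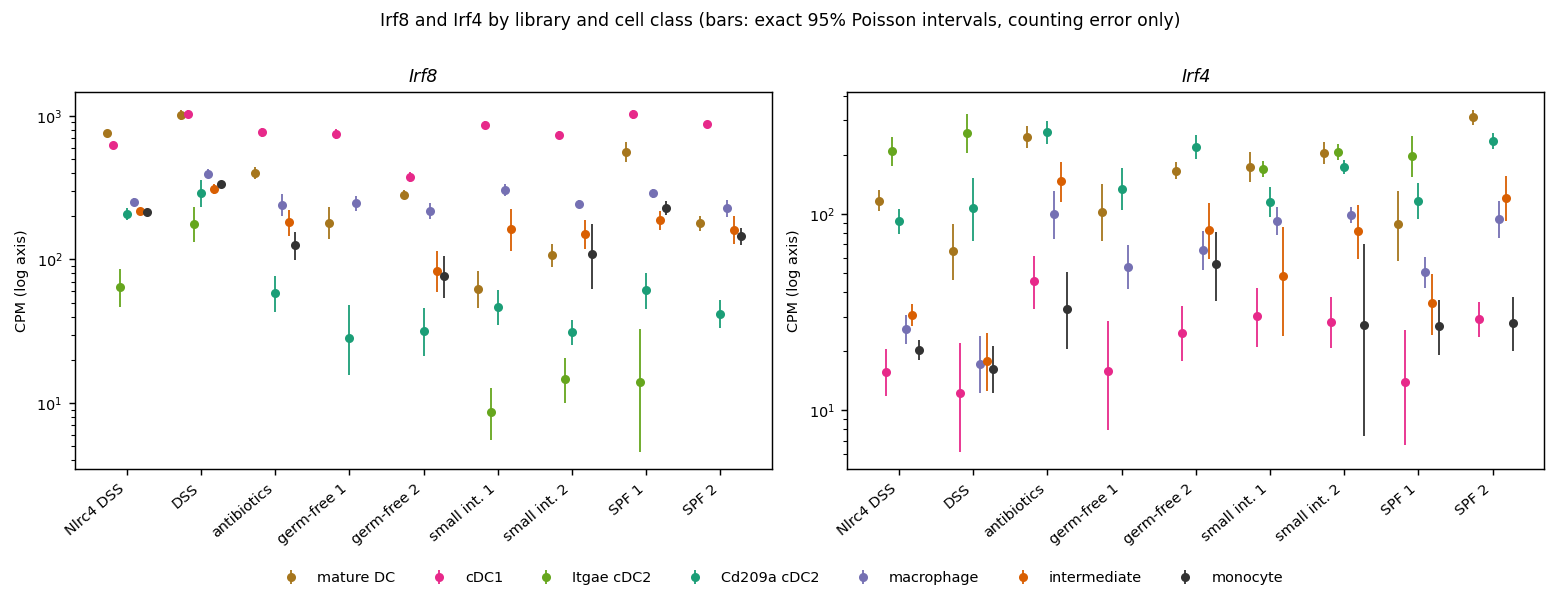
Irf8 (left) and Irf4 (right) in each library and class, as CPM on a log axis, with exact 95% Poisson intervals that cover counting error only. Both DSS libraries, at the left, have Irf8 above every other library in Cd209a cDC2 (206 and 290 CPM, against 28.6 to 60.96 CPM) and Irf4 below every other library in macrophages (25.9 and 17.3 CPM, against 50.5 to 99.99 CPM).

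The library labelled Nlrc4 deficient and the DSS library had more Irf8 than the other libraries in dendritic classes other than cDC1. Each condition has 1 library, so there is no test, and intervals cover counting error only. Irf8 in Cd209a cDC2-like cells had 206 CPM in the library labelled Nlrc4 deficient and 290 CPM in the DSS library, against 28.6 to 60.96 CPM in the other 7. In mature cells it had 763 and 1009.8 CPM in the same DSS libraries, against 62.5 to 564 CPM, and in Itgae Plet1 cDC2-like cells 63.8 and 176 CPM, against 8.59 to 14.6 CPM. Both DSS libraries thus lay above all others in each of these classes, and in intermediates too (218 and 308 CPM, against 83.1 to 188 CPM). Among genes reaching 50 CPM, 8.29% lay above in this way in Cd209a cDC2-like cells, 9.43% in mature cells, 15.1% in Itgae Plet1 cDC2-like cells and 8.76% in intermediates. In the same order, 5.37%, 5.66%, 15.6% and 6.02% lay below all others. The Irf8 UMIs of Cd209a cDC2-like cells came from 170 cells in the library labelled Nlrc4 deficient, with 5.95% of them in the richest cell, and from 32 cells in the DSS library, with 26.2% in the richest cell. Other lists moved in the same libraries. The summed neutrophil markers (6 genes) had 42.9 CPM in the library labelled Nlrc4 deficient and 72.4 CPM in the DSS library in Cd209a cDC2-like cells, against 8.67 to 21.7 CPM in the other 7, and 43.7 and 78.9 CPM in mature cells, against 5.56 to 21.3 CPM. The summed genes of dividing cells (6 genes) had 217 and 124 CPM in Cd209a cDC2-like cells of the same libraries, against 274 to 560 CPM. Their part in the Irf8 difference, and that of cDC1 RNA, was not tested.

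Irf4 went the other way in the monocyte and macrophage classes. Irf4 had 25.9 CPM in macrophages of the library labelled Nlrc4 deficient and 17.3 CPM in those of the DSS library, against 50.5 to 99.99 CPM in the other 7. It had 30.5 and 17.9 CPM in intermediates, against 35.1 to 147 CPM, and 20.4 and 16.3 CPM in monocytes, against 26.8 to 55.4 CPM. In Cd209a cDC2-like cells it had 92.0 and 107 CPM, against 115 to 260 CPM, but in Itgae Plet1 cDC2-like cells 209 and 258 CPM, against 170 to 207 CPM. Both DSS libraries were below all others in the first 4 classes, where 7.83%, 6.02%, 6.63% and 5.37% of genes were. In these 4 classes 10.7%, 8.76%, 6.42% and 8.29% of genes were above all others. Irf4 was above them in the last class, where 15.1% of genes were. Spi1 was above all others in macrophages (508 and 492 CPM, against 338 to 469 CPM) and in Cd209a cDC2-like cells (377 and 393 CPM, against 269 to 345 CPM), as were 10.7% and 8.29% of genes. Klf4 was below all others in Itgae Plet1 cDC2-like cells (429 to 640 CPM, against 764 to 934 CPM), as were 15.6% of genes. Combinations of member and class not named in this and the preceding paragraph overlapped.

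Between the DSS library and SPF colon, the intervals of 13 of 63 combinations of member and class lay apart, where 12.2% of combinations over all genes reaching 50 CPM did, 6 of them for Irf8, all upward, and 3 each for Klf4 and Zeb2, all downward. Irf8 in monocytes had 334 CPM in DSS colon (95% interval 315 to 354), against 228 and 145 CPM in SPF colon. Zeb2 in monocytes had 1223 CPM in DSS colon, against 1392 and 2366 CPM in SPF colon, and in intermediates 959 CPM, against 1208 and 2127 CPM. In these 2 classes the SPF libraries differed from each other for Zeb2 by more than the DSS library did from the nearer of them.

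The library labelled Nlrc4 deficient differed from the DSS library in 39 of 63 combinations, where 44.9% over genes reaching 50 CPM did. The members were counted at any level. Klf4 and Irf8 were lower in it and Zeb2 was higher in it in all 7 classes. Klf4 had 172 CPM in monocytes of the library labelled Nlrc4 deficient, against 628 CPM in DSS colon, and 240.5 CPM in macrophages, against 726 CPM in DSS colon. Genes of dissociation and stress (Fos, Jun, Egr1 and 7 others) moved with Klf4, summing to 4152 CPM in monocytes of the library labelled Nlrc4 deficient and 7037 CPM in DSS colon, and to 3638 and 7328 CPM in macrophages, and their part in the Klf4 difference was not tested. Maf had 55.2 CPM in macrophages of the library labelled Nlrc4 deficient, against 144 CPM in DSS colon, and Batf3 had 6.43 CPM in monocytes, against 21.9 CPM. Over all genes the median log2 ratio in macrophages was -0.27, so lower values were common in that comparison. Zeb2 had 60.1 CPM in cDC1-like cells of the library labelled Nlrc4 deficient and 24.7 CPM in DSS colon, and 458 and 241 CPM in Cd209a cDC2-like cells.

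Antibiotics colon differed from SPF colon in 6 of 54 combinations, and 4 of these were lower Klf4. Over genes reaching 50 CPM, 3.86% of combinations differed. Klf4 had 198 CPM in mature DC-like cells of antibiotics colon, against 560 and 368 CPM in SPF colon, 263 CPM in cDC1-like cells, against 475 and 479 CPM, and 286 CPM in intermediates, against 678 and 417 CPM. Irf8 in cDC1-like cells had 766 CPM in antibiotics colon, against 1028.6 and 875 CPM in SPF colon, and Zeb2 there had 51.6 CPM, against 23.7 and 27.3 CPM. Both differences exceeded counting error and have no replicate library behind them.

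Plasmacytoid dendritic cell-like cells, makers of type I interferon that depend on IRF8 and the E protein TCF4, numbered 17 over 3 libraries. They had 2022 CPM of Irf8 (95% interval 1791 to 2273), 283 CPM of Zeb2 and 152 CPM of Irf4. Batf3, Maf and Zbtb46 had 0 UMIs there, which allows up to 26.7 CPM each. Outside the phagocytes, Irf8 averaged 1480 ± 790 CPM in NK and innate lymphoid cells and 257 ± 64.7 CPM in B cells, Id2 2055 ± 842 CPM in NK and innate lymphoid cells, Irf4 467 ± 142 CPM in B cells and Maf 513 ± 234 CPM in T cells (SD, n = 9 libraries each). Neutrophils held Zeb2 at 1170 ± 402 CPM.

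Over the 56 sums of class and library, which share libraries and depth, the members followed each other in a few pairs. Maf and Zbtb46 were opposed (r = -0.80), as were Batf3 and Zeb2 (r = -0.76), while Zeb2 and Maf rose together (r = 0.71). Irf8 and Irf4 had r = -0.61 over all sums and r = -0.40 with each class centred on its own mean, a value pooled over classes. In Cd209a cDC2-like and intermediate cells, both DSS libraries had Irf8 above and Irf4 below all other libraries. In Itgae Plet1 cDC2-like cells both genes were above. The part of the DSS libraries in the centred value was not tested. With classes centred, Batf3 and Klf4 had r = 0.58 and Zeb2 and Klf4 r = -0.54. The gene whose log2(CPM + 10) was most like that of Zeb2 was Dirc2 (r = 0.95), then Slc15a3 and Rnf149, among 3845 genes searched. Maf was most like Itgb5 (r = 0.95), Apoe and Cmklr1, and Zbtb46 most like Nectin1 (r = 0.92), P2ry10 and Mkl1. Irf4 was nearest to Stat4, Stap1 and Ddx6 (r = 0.85, 0.84 and 0.84), Batf3 to Shtn1, Atp5g2 and Rdx (r = 0.85, 0.83 and 0.83) and Id2 to Cblb, Strip2 and Tspan3 (r = 0.84, 0.78 and 0.77). Spi1 was nearest to Slc2a1, Atp6v1e1 and Fpr2 (r = 0.82, 0.82 and 0.81), Klf4 to Wdr89, Btg2 and Arhgap9 (r = 0.75, 0.72 and 0.71) and Irf8 to Ifi205, P2ry14 and Rab11a (r = 0.73, 0.71 and 0.71).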

How the data were processed

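CD11b+ cells of mouse intestine were profiled with a 3' single-cell kit with UMIs. The authors deposited UMI counts per gene and cell, whole numbers that had not been normalized. The submitters' processing notes name Cell Ranger and STAR 2.5.1b, and the genome build of the counts is not given in the sources used here. Gene positions are those of GENCODE vM21 and RefSeq on GRCm38, used for identity only.

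Cells with mitochondrial UMIs up to 15% and at least 200 genes were sorted by the share of marker UMIs per 10000, with limits set from the marker distributions and between 4.83% and 9.64% of a class lying within 25% above its limit. No doublet caller was run: 2501 cells that passed 2 sets of markers were left out, and an alternative dropped the top 2% of cells by UMIs. UMIs were summed per library and class, and sums of at least 20 cells were tested with edgeR 4.0.16 (R 4.3.3): TMM, filterByExpr, quasi-likelihood F test and Benjamini-Hochberg adjustment over all genes at a false discovery rate of 0.05. Class contrasts had the library as a block, and condition contrasts compared 2 with 2 libraries without a block. DESeq2 1.42.0 and the alternatives of the closing section were run on the same sums. CPM are shares of the class total and ignore composition. Log2 ratios of single libraries used 5 CPM added, and correlations 10 CPM.

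On simulated counts, the macrophage against monocyte test recovered 78.1% of genes changed 2-fold and 98% of genes changed 4-fold, with 9.52% of calls false. The recoveries for GF against SPF in cDC1-like cells stand in the report, with 9.18% of calls false.

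Named genes were the 9 members, up to 3 called genes with the largest fold change from each of 9 lists of related regulators per comparison, and the 3 genes most correlated with each member. The members and lists were chosen with earlier results of these data known. One gene that this rule names is not reported here.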

Additional observations from a re-analysis of the deposited data

Results flagged for a closer look

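In 4 of 63 combinations of member and class, 1 library stood apart from the others of its class by Dixon's test, which flags about 1 in 20 groups by chance. The libraries of a class are of different conditions. Irf8 in macrophages stood at 396 CPM in the DSS library, with the next library at 305 CPM. Batf3 in monocytes stood at 75.2 CPM in small intestine 2, the only small intestine library in that class, with the next at 35.8 CPM. Irf4 in monocytes stood at 55.4 CPM in GF replicate 2, the only GF library in that class, with the next at 33.0 CPM. Zbtb46 in macrophages stood at 12.3 CPM in small intestine 2, with the next at 4.33 CPM.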

How the results depend on the processing

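No member reversed its direction between settings where it was called under either. Member calls were lost in 45 and gained in 30 combinations of comparison and alternative. Of members called under neither setting, 134 values changed sign, and 78 values were not available under an alternative. Counts of genes called moved by more than 1.5 times in these cases. Intermediate against monocyte-like cells had 524, with 179 under doubled marker limits, 1383 under halved limits, 120 without the library block, 328 without the DSS libraries and 339 to 541 leaving out 1 library. Itgae Plet1 against Cd209a cDC2-like cells had 1418, with 774 under halved limits, 847 without the block, 763 over the colon and 979 to 1394 leaving out 1 library. Macrophage-like against intermediate cells had 1690, with 795 without the block and 1313 to 1731 leaving out 1 library.

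For GF against SPF colon in cDC1, Cd209a cDC2, macrophages and mature DC, in that order, DESeq2 called 4, 3, 3 and 4 genes, no filter on low counts gave 82, 35, 84 and 73, and leaving out 1 library gave up to 46, 7, 4 and 20 (lowest 0). For small intestine against SPF colon in the same order they were 16, 13, 41 and 26 with DESeq2 and 135, 163, 304 and 162 with no filter, and leaving out 1 library gave 1 to 53, 0 to 17, 0 to 25 and 0 to 25. The replicate block gave 70 (cDC1), 7 (cDC2) and 10 (mature DC) for GF and 68, 68, 20 and 25 for small intestine. Doubled limits gave 8 in cDC2 and 1 in mature DC for small intestine. Halved limits gave 3 in cDC2 for small intestine and 1 in mature DC for GF. A stricter cell filter gave 1 in cDC2 and 1 in mature DC for GF, and leaving out the cells of most UMIs gave 1 in mature DC for GF. With the replicate block Id2 in cDC1 was also called for small intestine (-0.77, edgeR adjusted p = 0.0415). Same-numbered libraries deviated together in the 3 DC classes (r = 0.10 to 0.33) but not in all pairs of groups in macrophages (-0.11 to 0.16). As the labels give a number only and each group has 2, the numbers were not taken as pairs, and the data do not settle whether they are. Leaving out a library in a comparison of 2 with 2 assumes that the lone library varies like the other groups. Scaled by TMM-adjusted totals, 45 of 180 ratios between single libraries moved by more than their counting error and 0 reversed. With 1 CPM added in place of 10, 19 of the 27 most similar genes stayed among the 3 nearest.

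Limits lie in depth and design: 2 libraries per condition could not show 2-fold changes in most genes, DSS and antibiotics have 1 library each, and the cDC2 classes rest on the genes used to sort them.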
